A study of Sus scrofa with 16 samples.

Results

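MSTN encodes myostatin, a secreted protein of the TGF-beta family that restrains muscle growth, and its mRNA was followed in 2 skeletal muscles of 8 Iberian pigs at 2 feeding levels. The gene was represented by every probe set of the Affymetrix porcine array whose only symbol in the platform annotation is MSTN, which gave 2 probe sets of 24123 in the table, called here S2_at and S1_s_at after the ends of their identifiers, and made it 1 of 6765 genes that such probe sets name. Both passed the filter on low values (log2 of at least 4 in at least 4 of the 16 arrays), as did 11467 probe sets in all. The muscles were psoas major, a loin muscle, and diaphragm, the main muscle of breathing, and each animal gave 1 array of each. Animals 2, 3, 5 and 8 were under 20% feed restriction, and animals 1, 4, 6 and 7 were on the high feeding level. Each feeding level held 2 females and 2 males (females 5 and 8 under restriction and 6 and 7 on the high level, males 2 and 3 under restriction and 1 and 4 on the high level). All pigs were 211 days old at slaughter, had been given the same pelleted diet in 2 daily meals until the restriction began, and were of 1 breed. The age at which the restriction began, and whether the males had been castrated, are unstated in the labels. Values are log2 expression values on which 1 unit is a 2-fold difference, and a level of one probe set is not set against that of the other, since probes differ in how brightly they bind.

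Myostatin is made chiefly by skeletal muscle fibres as a precursor that is cut by furin-type proteases and held latent by its own propeptide until BMP1/tolloid proteases release it. The free ligand binds the type II receptors ACVR2B and ACVR2A, which recruit the type I receptors ACVR1B or TGFBR1, and the signal passes through SMAD2 and SMAD3 with SMAD4, while follistatin (FST), FSTL3 and the WFIKKN proteins hold the ligand back. Animals that lack myostatin, such as double-muscled cattle, have greatly enlarged muscles, and in mice its mRNA is more abundant in fast than in slow fibres.

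The arrays were alike in scale, with medians between 3.56 and 3.62 and between 11025 and 11163 probe sets at or above a log2 value of 4. The 4 of 7 listed markers of muscle fibres with a probe set of 1 symbol (CKM, DES, MYOZ1 and TTN) had summed levels of 16.37 to 16.50 log2 in psoas and 16.34 to 16.44 log2 in diaphragm. These sums show skeletal muscle in each array, but they do not tell psoas from diaphragm or detect other tissue. Fast fibre genes were higher in psoas for 4 of 7 tested and lower for 0 of 7, and slow fibre genes were lower in psoas for 6 of 9 tested, where 27.0% of all tested probe sets were called in either direction. The diaphragm arrays also carried hepatocyte transcripts, described beside the comparison of the muscles. Because the arrays measured whole tissue, fewer fibres of a type and less mRNA per fibre cannot be told apart.

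MSTN was at or above 4 log2 in every psoas array and in most diaphragm arrays, and its highest levels lay in psoas of restricted animals. For probe set S2_at, psoas of the restricted animals 2, 3, 5 and 8 had 6.66, 6.97, 7.20 and 6.32 log2, and psoas of the high-level animals 1, 4, 6 and 7 had 5.72, 4.84, 6.30 and 5.73 log2. In diaphragm the same probe set had 5.86, 4.90, 5.98 and 6.26 log2 in restricted animals 2, 3, 5 and 8, against 5.31, 3.37, 6.05 and 4.89 log2 in high-level animals 1, 4, 6 and 7. Animal 4, a male on the high level, had the lowest value in both muscles, and its diaphragm was the only array below 4.

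Probe set S1_s_at had 6.39, 6.37, 6.595 and 6.11 log2 in psoas of restricted animals 2, 3, 5 and 8, against 4.65, 4.46, 4.60 and 5.19 log2 in psoas of high-level animals 1, 4, 6 and 7. In diaphragm it had 5.19, 3.53, 5.11 and 5.89 log2 in restricted animals 2, 3, 5 and 8, against 4.47, 2.81, 5.23 and 4.37 log2 in high-level animals 1, 4, 6 and 7. Animal 4 was again lowest in both muscles, and the diaphragms of animals 3 and 4 lay below 4. The suffix _s_at marks probes that, in the maker's naming, can match several transcripts, and which others they might match was not examined. After each muscle's mean was subtracted, the 2 probe sets had a Pearson correlation of 0.904 over the 16 arrays, with 0.841 over the 8 psoas and 0.953 over the 8 diaphragm arrays.

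**Figure D1:**
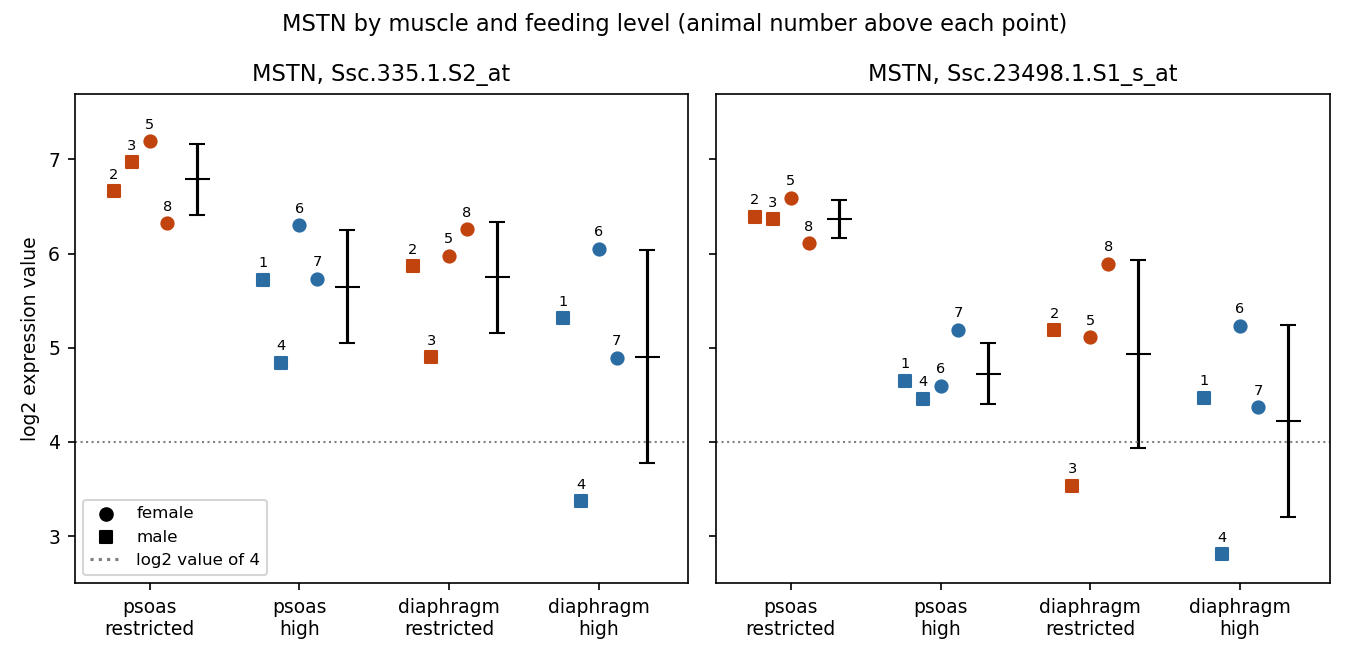
Log2 expression of MSTN on each array for both probe sets (panels), by muscle and feeding level; points are arrays with the animal's number, and lines mark each group's mean and SD (n = 4). Psoas of restricted animals holds the highest mean, 6.79 log2 for S2_at and 6.37 log2 for S1_s_at, and the high-level diaphragm group has the largest SD, 1.13 and 1.02 log2.

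The order of the group means was the same for both probe sets. For S2_at the means were 6.79 ± 0.38 log2 in restricted psoas, 5.75 ± 0.59 in restricted diaphragm, 5.65 ± 0.60 in high-level psoas and 4.91 ± 1.13 in high-level diaphragm (SD, n = 4 each). For S1_s_at they were 6.37 ± 0.20 log2 in restricted psoas, 4.93 ± 0.997 in restricted diaphragm, 4.72 ± 0.32 in high-level psoas and 4.22 ± 1.02 in high-level diaphragm (SD, n = 4 each). The means of restricted diaphragm and high-level psoas lay within 1 SD of each other and their arrays overlapped. The arrays of high-level psoas and high-level diaphragm overlapped too, with means closer than the diaphragm SD but further apart than the psoas SD. The SD of S1_s_at was 0.20 and 0.32 log2 in the psoas groups (restricted and high level) and 0.997 and 1.02 log2 in the diaphragm groups.

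The first comparison asked whether MSTN mRNA differs between the muscles, and it was higher in psoas than in diaphragm by both probe sets. S2_at had a lowest, median and highest value of 4.84, 6.31 and 7.20 log2 in psoas, against 3.37, 5.59 and 6.26 log2 in diaphragm. S1_s_at had 4.46, 5.65 and 6.595 log2 in psoas, against 2.81, 4.79 and 5.89 log2 in diaphragm. The ranges of the muscles overlapped for both. Within animals, S2_at was higher in psoas in 8 of 8, by 0.07 log2 in animal 8 up to 2.07 log2 in animal 3. S1_s_at was higher in psoas in 7 of 8, by up to 2.83 log2 in animal 3, and animal 6 had a difference of -0.64 log2.

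In the limma fit over the 16 arrays, adjusted for feeding level and sex, psoas exceeded diaphragm by 0.89 ± 0.29 log2 for S2_at (SE, 95% confidence interval 0.28 to 1.503, a fold of 1.85, adjusted p = 0.0328). For S1_s_at the difference was 0.97 ± 0.31 log2 (SE, interval 0.31 to 1.63, a fold of 1.96, adjusted p = 0.0314). A probe set was called at a Benjamini-Hochberg adjusted p under 0.05, which 27.0% of all tested probe sets passed in this comparison, so that both MSTN probe sets being called stands against a background of about 1 in 4. The 2-sided exact permutation test over animals, which flips the sign of each animal's difference, gave p = 0.0078 for S2_at, the smallest its 256 arrangements allow, and p = 0.0391 for S1_s_at. Adjusted over the 20 exact tests made on MSTN, these were 0.143 and 0.156, without covering that the gene was chosen with earlier results of these data known.

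The call was lost on leaving out any 1 of several animals. Without animal 2 or 7 the S2_at difference did not shrink (0.904 and 0.898 log2, against 0.891 log2 over all animals), while its SE was 0.32 log2 against 0.29 log2. The limma adjusted p of S2_at was 0.0631 without animal 2, 0.112 without animal 3, 0.0809 without animal 5 and 0.0602 without animal 7, and that of S1_s_at was 0.0642, 0.0875, 0.0648, 0.0818 and 0.0606 without animals 2, 3, 4, 5 and 7, with the differences between 0.70 and 1.20 log2 in all such fits.

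Transcripts of other cell types moved with the muscles, in counts to be read against the 27.0% called over all tested probe sets. All 7 tested hepatocyte markers were lower in psoas, with summed levels of 7.02 to 7.90 log2 in psoas and 8.06 to 11.37 log2 in diaphragm, and SERPINA1, the eighth marker on the array, was below 4 everywhere. Among diaphragms, animals 2, 5 and 6 had hepatocyte sums of 8.85, 9.23 and 9.06 log2 and S2_at values of 5.86, 5.98 and 6.05 log2. Animals 1, 4 and 7 had sums of 10.83, 10.63 and 10.11 log2 and S2_at values of 5.31, 3.37 and 4.89 log2. Animal 3 had the lowest sum, 8.06 log2, with S2_at at 4.90 log2. Animal 8 had the highest sum, 11.37 log2, with S2_at at 6.26 log2. All 7 tested endothelial markers were also lower in psoas, with sums of 9.996 to 10.60 log2 in psoas and 10.73 to 11.31 log2 in diaphragm (KDR and TIE1 were below 4 on every array). Adipocyte sums (2 of 3 tested markers lower in psoas, LEP below 4 on every array) were 10.07 to 10.77 log2 in psoas and 10.56 to 11.95 log2 in diaphragm, and immune cell sums (2 of 4 tested lower in psoas, with PTPRC, CD14 and CD3E below 4 on every array) were 8.64 to 9.67 log2 in psoas and 9.42 to 10.47 log2 in diaphragm. The part of these cells in the MSTN difference was not tested. The actin control probe sets, whose 3' minus 5' difference grows as RNA breaks or is copied short, had differences of 4.07 to 4.33 log2 in the diaphragms of animals 1, 2, 3 and 5, against 3.35 to 3.49 log2 in those of animals 4, 6, 7 and 8. The same diaphragms were parted by the ef1a control, though only just, at 0.906 to 1.27 log2 against 0.697 to 0.901 log2. By the gapdh control they had -0.045 to 0.078 log2 against -0.234 to -0.069 log2. In animals 4, 6, 7 and 8 alone, the muscles differed by 0.66 log2 for S2_at (limma adjusted p = 0.274) and by 0.51 log2 for S1_s_at (adjusted p = 0.389), below the call and, for S1_s_at, over 1.5 times smaller. Of these, animals 4, 6 and 7 were on the high level and only animal 8 was restricted, so the subset also differs in feeding. All high-level animals alone gave 0.74 log2 for S2_at and 0.50 log2 for S1_s_at. The parts of RNA quality and feeding in the smaller difference were not tested.

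**Figure D2:**
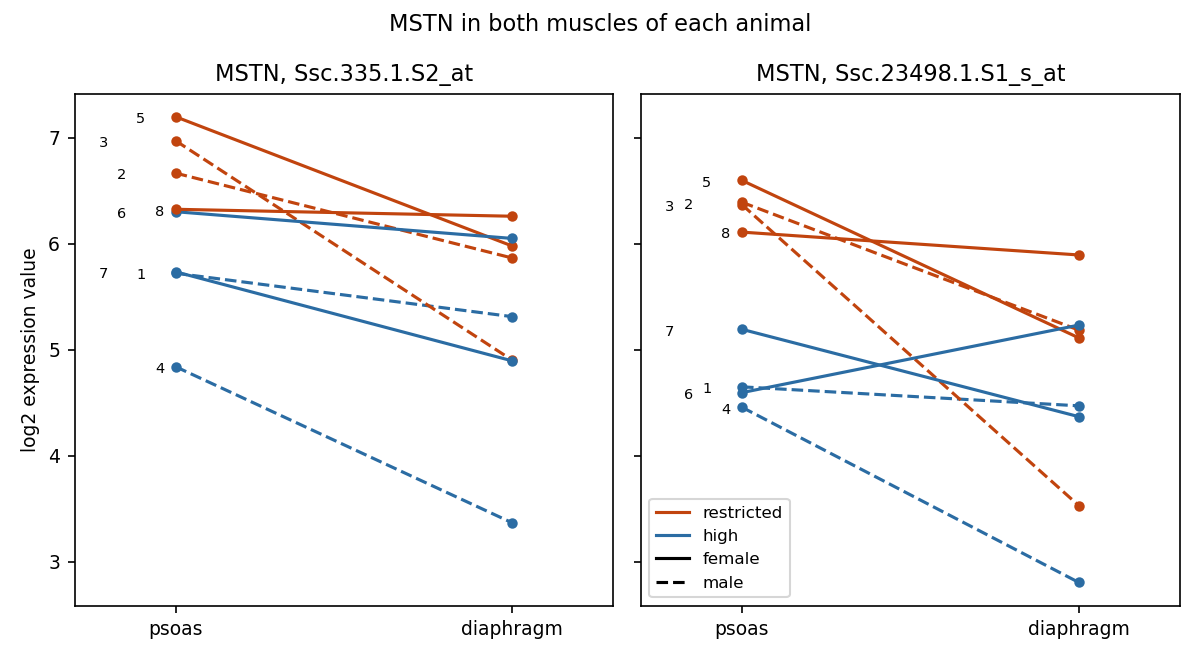
Log2 expression of MSTN in psoas and diaphragm of each of the 8 animals, 1 line per animal and 1 panel per probe set; numbers are animals, colours feeding levels and line styles sexes. For S2_at all 8 lines run down towards diaphragm, by 0.07 to 2.07 log2, and for S1_s_at 7 of 8 do.

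Within the restricted animals psoas exceeded diaphragm by 1.04 ± 0.29 log2 for S2_at (SE, limma adjusted p = 0.0555) and by 1.43 ± 0.40 log2 for S1_s_at (SE, adjusted p = 0.0560). Both were positive in 4 of 4 animals but missed the threshold, which 12.1% of all tested probe sets passed. Without animal 8, whose muscles were nearly level, the differences were 1.36 log2 (adjusted p = 0.0358) for S2_at and 1.84 log2 (adjusted p = 0.0493) for S1_s_at, and both were then called. Neither was called without animal 2, 3 or 5, at limma adjusted p of 0.166 to 0.193 for S2_at and 0.116 to 0.165 for S1_s_at. Without animal 3 the differences were 0.69 log2 for S2_at and 0.97 log2 for S1_s_at. Within the high-level animals the differences were 0.74 ± 0.46 log2 (SE, positive in 4 of 4 animals, limma adjusted p = 0.393) for S2_at and 0.50 ± 0.39 log2 (SE, positive in 3 of 4, adjusted p = 0.496) for S1_s_at, where 1.67% of all tested probe sets were called. The S1_s_at difference in high-level animals was 0.12 log2 without animal 4 and 0.88 log2 without animal 6. With 4 animals the exact permutation test cannot go below 0.125, the value it gave for both probe sets in the restricted animals and for S2_at in the high-level animals.

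The muscle difference was also set between the feeding levels directly, as each animal's psoas minus diaphragm difference in restricted minus high-level animals. It was larger in restricted animals by 0.30 ± 0.38 log2 for S2_at (SE, 95% confidence interval -0.58 to 1.17, limma adjusted p = 0.926) and by 0.93 ± 0.52 log2 for S1_s_at (SE, interval -0.25 to 2.11, adjusted p = 0.841), neither of them called. Leaving out 1 animal at a time gave 0.0018 log2 (without animal 3) to 0.57 log2 (without animal 8) for S2_at and 0.57 log2 (without animal 3) to 1.26 log2 for S1_s_at. The animals' differences overlapped between the feeding levels, from 0.07 to 2.07 log2 in restricted and 0.25 to 1.47 log2 in high-level animals for S2_at, and from 0.22 to 2.83 log2 in restricted and -0.64 to 1.65 log2 in high-level animals for S1_s_at. Of all tested probe sets 0% were called by limma in this comparison, with 696 at an unadjusted p under 0.05.

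The second comparison asked whether MSTN mRNA differs with feeding, and in psoas every restricted animal had more of it than every high-level animal by both probe sets. For S1_s_at the lowest restricted array, 6.11 log2, stood 0.92 log2 above the highest high-level array, 5.19 log2. For S2_at the lowest restricted array, 6.32 log2, stood only 0.02 log2 above the highest high-level array, 6.30 log2. Over all tested probe sets, 277 (2.42%) had every restricted psoas above every high-level psoas.

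The limma difference, restricted minus high, with sex as a covariate, was 1.64 ± 0.18 log2 for S1_s_at (SE, 95% confidence interval 1.23 to 2.05, a fold of 3.12) and 1.14 ± 0.30 log2 for S2_at (SE, interval 0.45 to 1.83, a fold of 2.20). S1_s_at had the smallest unadjusted p of all 11467 tested probe sets in this comparison (1.8e-05) and ranked 7 by size, yet its adjusted p was 0.172. S2_at ranked 184 by p and 48 by size, with an adjusted p of 0.321. Neither was called, and of all tested probe sets 0% were called by limma, with 1291 at an unadjusted p under 0.05. The 2-sided exact permutation test over the 70 ways of choosing 4 of 8 animals gave p = 0.0286 for both, the smallest it can give, and 0.143 after adjustment over the 20 exact tests. Groups that do not overlap always give this smallest value. The adjustment does not cover the choice of MSTN, which was made with earlier results of these data known. A fit was also made with an added term for animals 1, 2, 3 and 5 (3 of them restricted) against the others. In it the difference of S2_at was 0.70 log2, over 1.5 times smaller, and that of S1_s_at was 1.47 log2. These animals were set apart above by the actin 3' minus 5' differences of their diaphragms. In psoas the actin differences overlapped, at 3.29 to 3.71 log2 in animals 1, 2, 3 and 5, against 3.07 to 3.85 log2 in the others. The part of RNA quality in the smaller S2_at difference was not tested.

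Muscle fibre markers summed to 16.42 to 16.47 log2 in restricted psoas and to 16.37 to 16.50 log2 in high-level psoas, and adipocyte markers to 10.30 to 10.77 log2 in restricted and 10.07 to 10.31 log2 in high-level psoas. Hepatocyte sums were 7.19 to 7.90 log2 in restricted and 7.02 to 7.66 log2 in high-level psoas. The actin 3' minus 5' difference averaged 3.36 ± 0.26 log2 in restricted and 3.53 ± 0.24 log2 in high-level psoas (SD, n = 4 each). Each of these overlapped between the feeding levels, the adipocyte sums only just, and their part in the MSTN values was not tested. By feeding in psoas, 0 of 7 fast and 0 of 9 slow fibre genes were called, as were 0% of all tested probe sets. The median differences were 0.07 log2 for the fast and 0.13 log2 for the slow fibre genes, against -0.02 log2 over all tested probe sets.

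In diaphragm the feeding levels overlapped for both probe sets, and only 1 of 4 restricted animals, animal 8, stood above all high-level animals. The difference, restricted minus high, was 0.84 ± 0.46 log2 for S2_at (SE, 95% confidence interval -0.22 to 1.91, limma adjusted p = 0.589) and 0.71 ± 0.48 log2 for S1_s_at (SE, interval -0.40 to 1.82, adjusted p = 0.652). Without animal 4 the differences were 0.42 log2 for S2_at and 0.38 log2 for S1_s_at, and without animal 2 that of S1_s_at was 0.38 log2. The intervals hold 0 and also hold differences as large as those seen in psoas. The exact permutation p was 0.286 for S2_at and 0.429 for S1_s_at. Of all tested probe sets 0% were called by limma in diaphragm, with 1101 at an unadjusted p under 0.05, and 2.19% had every restricted diaphragm above every high-level one. When the fit carried that added term, the differences were 0.43 log2 for S2_at, over 1.5 times smaller, and 0.49 log2 for S1_s_at. In diaphragm the actin difference averaged 3.996 ± 0.43 log2 in restricted and 3.62 ± 0.44 log2 in high-level animals (SD, n = 4 each). Hepatocyte sums overlapped, at 8.06 to 11.37 log2 in restricted and 9.06 to 10.83 log2 in high-level diaphragm. Their means differed by -0.78 log2, restricted minus high, and the part of hepatocyte transcripts in the MSTN values was not tested. Immune cell sums were 9.42 to 9.95 log2 in restricted diaphragm, all below the 10.02 to 10.47 log2 of high-level diaphragm, and their part in the MSTN values was not tested. They were the only listed sums that did not overlap by feeding in either muscle, and 0 of 4 tested immune markers were called here. The share of all tested probe sets with every restricted diaphragm below every high-level one was not computed.

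Averaged over the muscles of each animal, MSTN differed by 0.99 ± 0.33 log2 for S2_at (SE, limma adjusted p = 0.321, exact permutation p = 0.0571) and by 1.18 ± 0.24 log2 for S1_s_at (SE, adjusted p = 0.278, exact permutation p = 0.0286), restricted minus high. Neither was called, and 0% of all tested probe sets were called by limma on the animal means, with 1451 at an unadjusted p under 0.05. The same added term moved the difference of S2_at to 0.56 log2, and leaving out animal 4 moved it to 0.65 log2.

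**Figure D3:**
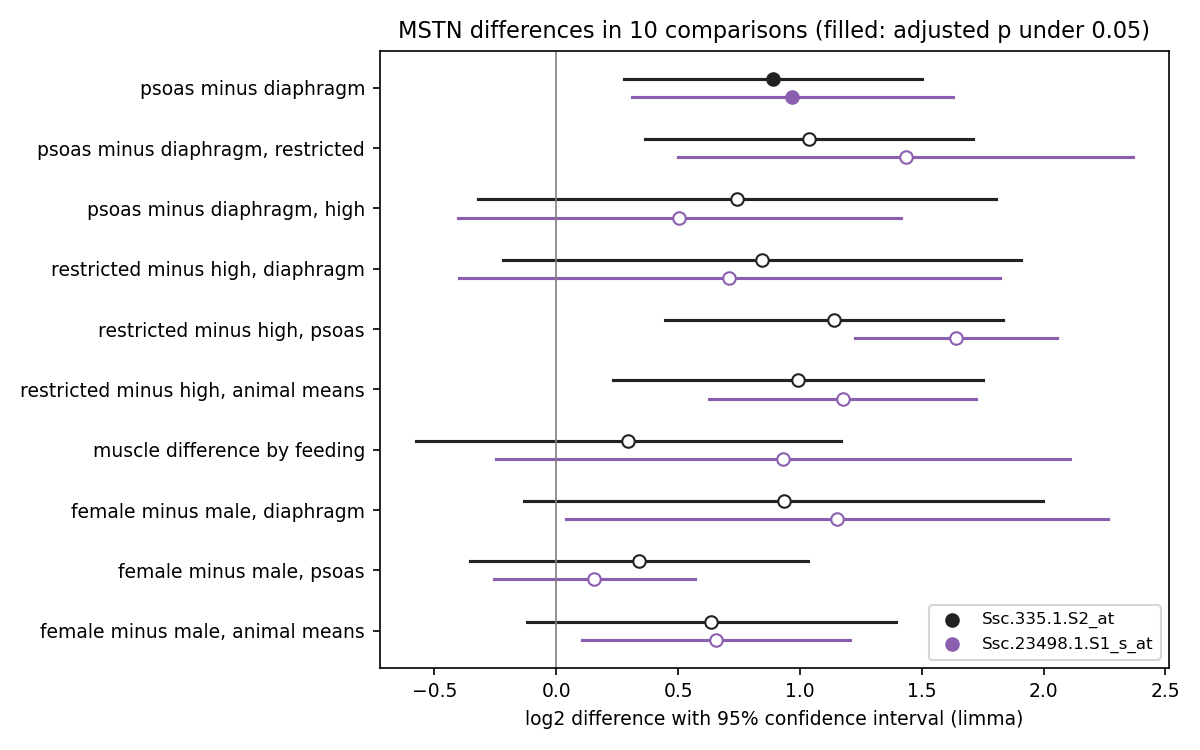
Differences in log2 expression of MSTN for each comparison, with 95% confidence intervals from limma, for both probe sets. The psoas difference between feeding levels of S1_s_at, 1.64 log2, is the largest, while only the psoas minus diaphragm differences over all animals, 0.89 and 0.97 log2, were called.

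MSTN values were also set between the sexes, which were balanced over the feeding levels. In diaphragm, females had 5.79 ± 0.61 log2 and males 4.86 ± 1.07 log2 for S2_at (SD, n = 4 each). For S1_s_at, diaphragm of females had 5.15 ± 0.62 log2 and that of males 3.999 ± 1.04 log2 (SD, n = 4 each). The female minus male differences were 0.93 ± 0.46 log2 for S2_at (SE, limma adjusted p = 0.794, exact permutation p = 0.2) and 1.15 ± 0.48 log2 for S1_s_at (SE, adjusted p = 0.740, exact permutation p = 0.171), and the 3 diaphragm values below 4 all came from males 3 and 4. In psoas they were 0.34 ± 0.30 log2 (adjusted p = 0.699) for S2_at and 0.16 ± 0.18 log2 (adjusted p = 0.772) for S1_s_at, and over animal means 0.64 ± 0.33 log2 (adjusted p = 0.632) and 0.65 ± 0.24 log2 (adjusted p = 0.479). Without animal 4, a male, the S2_at difference was 0.51 log2 in diaphragm, 0.08 log2 in psoas and 0.29 log2 over animal means. Leaving out each animal moved the S1_s_at difference in psoas between 0.001 and 0.29 log2. No MSTN value was called by sex, against 0.122% of all tested probe sets in diaphragm, 0.0959% in psoas and 0.183% on animal means.

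Of 71 other genes listed for the myostatin pathway, 40 had a probe set with 1 symbol and 26 passed the filter. Between the muscles 2 of the 26 rose in psoas and 1 fell, with a median difference of -0.04 log2 against 0.02 log2 over all tested probe sets, where 27.0% were called. ACVR1B, a type I receptor that carries the myostatin and activin signal, was higher in psoas by 0.75 ± 0.14 log2 (SE, limma adjusted p = 0.0017), in 8 of 8 animals. Its lowest, median and highest values were 7.24, 8.12 and 8.92 log2 in psoas, against 7.10, 7.27 and 7.86 log2 in diaphragm. FOXO1, a transcription factor that drives atrophy genes and whose sites occur in the MSTN promoter of mammals, was higher in psoas by 0.34 ± 0.12 log2 (SE, adjusted p = 0.0466), in 8 of 8 animals. DCN, the matrix proteoglycan decorin, which can bind myostatin, was lower in psoas in 8 of 8 animals, with a difference of -0.66 ± 0.14 log2 (SE, adjusted p = 0.0034). Its values were 11.31 to 12.09 log2 in psoas and 12.16 to 12.91 log2 in diaphragm. Decorin is also made by fibroblasts, of whose listed markers 3 of 5 tested were lower in psoas and 1 higher; their part was not tested.

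Most other members did not pass the test between the muscles. Of the related ligands, BMP4 differed by -0.26 log2 and TGFB2 by 0.10 log2, psoas minus diaphragm, while GDF11, the closest relative of myostatin, INHBB and BMP7 were below 4 on every array. BMP1, the protease that frees latent myostatin, differed by -0.20 log2, and it was itself below 4 in 10 of 16 arrays. Of the binding proteins, FSTL3 differed by 0.34 log2 (limma adjusted p = 0.0599), follistatin (FST), close to the filter at means of 4.12 log2 in psoas and 4.07 log2 in diaphragm, by 0.05 log2, and TCAP, a sarcomere protein that can bind myostatin, by -0.15 log2. The receptors ACVR1, BMPR1A, BMPR1B and TGFBR1 differed by -0.05, -0.01, -0.20 and 0.05 log2, and ACVR2A and TGFBR3 were below 4 on every array. The signal carriers SMAD1, SMAD3 and SMAD4 differed by -0.15, -0.13 and 0.14 log2. FBXO32, the ubiquitin ligase atrogin-1 of muscle atrophy, differed by -0.52 log2, and MYOD1, a myogenic transcription factor, by 0.31 log2 (adjusted p = 0.0583). In the fit with the animal as a replicate block, which compares the muscles within each animal, 8 of the 26 genes were called, ACVR1B, FOXO1, MEF2A, FSTL3 and MYOD1 higher in psoas and DCN, BMP1 and FBXO32 lower, against 33.5% of all tested probe sets.

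By feeding, 0 of the 26 pathway genes were called in psoas, in diaphragm or on animal means, as were 0% of all tested probe sets in each. AKT1, a kinase of the growth pathway that myostatin dampens, had the lowest adjusted p of the list in psoas, with a difference of -0.43 log2, restricted minus high (limma adjusted p = 0.344), and in diaphragm it differed by -0.63 log2 (adjusted p = 0.472). Beside the 1.64 and 1.14 log2 of the MSTN probe sets, the 26 genes spanned -0.45 to 0.34 log2 in psoas, with ACVR1B at 0.07 log2, TGFBR1 at 0.23 log2 and FST at -0.05 log2. FOXO1, higher in psoas than in diaphragm as MSTN was, differed by -0.28 log2 by feeding in psoas. IGF1 and IGF1R, of the growth factor axis opposed to myostatin, were below 4 on every array.

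**Figure D4:**
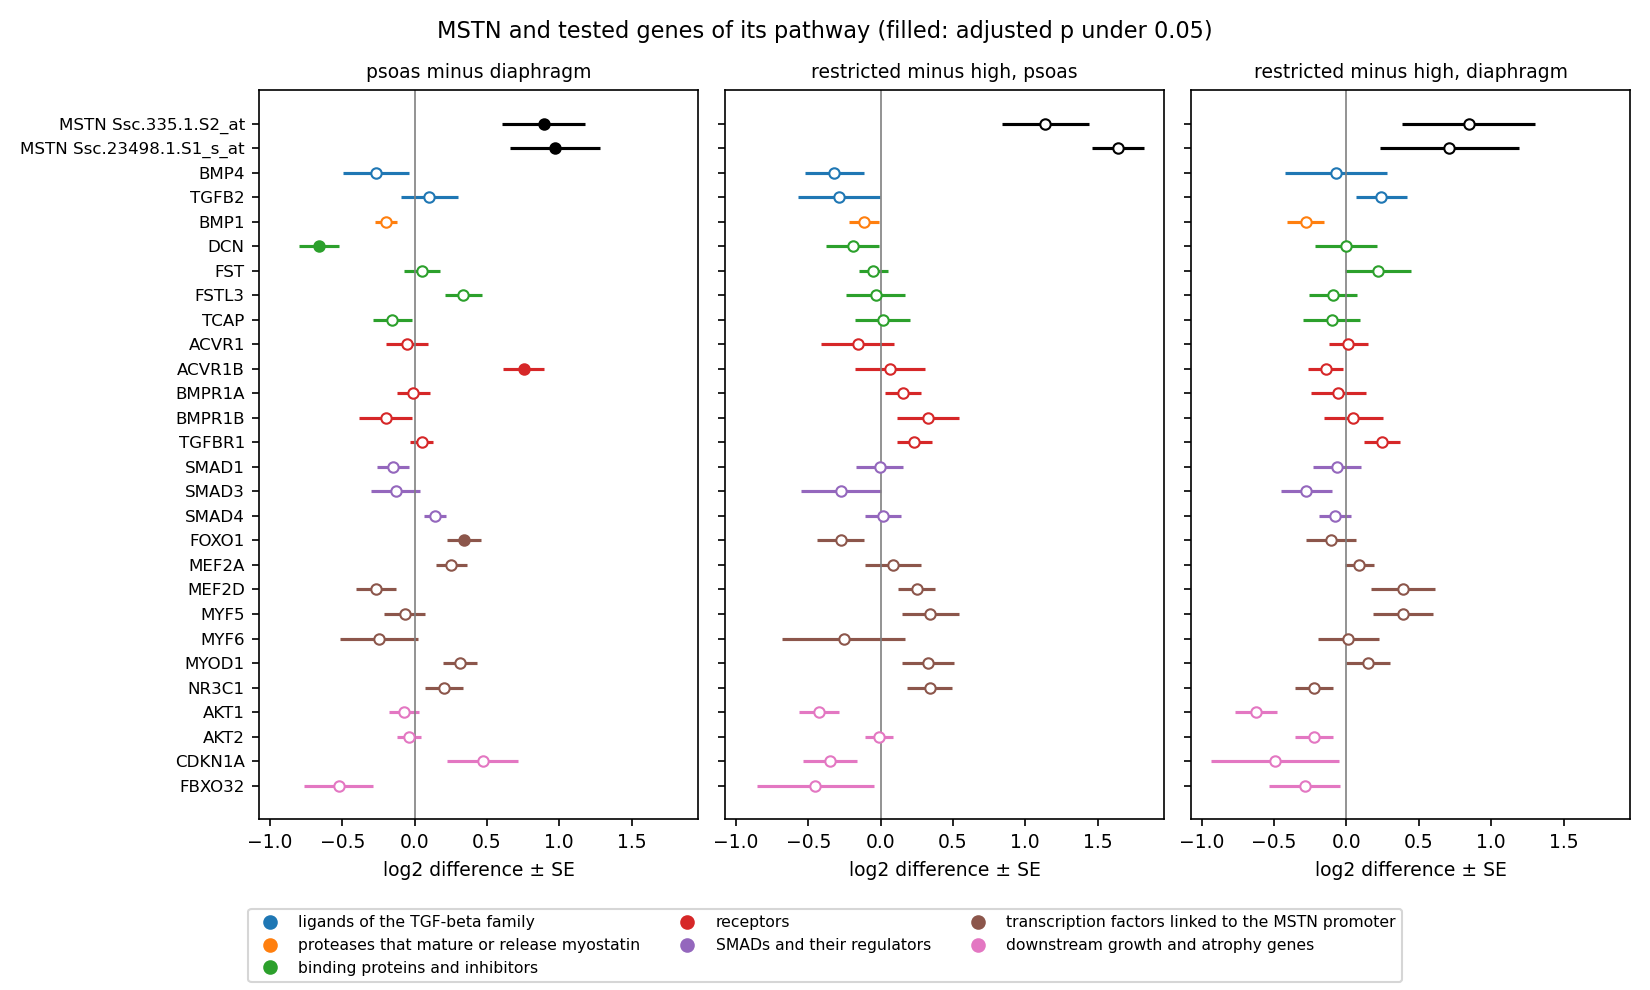
Differences in log2 expression of MSTN and the 26 tested genes of its pathway, psoas minus diaphragm in the left panel and restricted minus high in psoas and in diaphragm in the others; bars are 1 SE and filled points passed an adjusted p of 0.05. Between the muscles ACVR1B, FOXO1 and both MSTN probe sets lie to the right and DCN to the left, and by feeding in psoas the MSTN probe sets at 1.14 and 1.64 log2 lie beyond the pathway genes, which span -0.45 to 0.34 log2.

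Genes that varied like MSTN were sought among 4570 tested genes with 1 symbol, by the Pearson correlation with S2_at over 16 arrays after each muscle's mean was subtracted. Over all those genes the correlation had a median of -0.13, and 95% lay between -0.74 and 0.65. The gene most like MSTN was SGCD, delta-sarcoglycan of the dystrophin complex at the fibre membrane, at 0.898 (0.840 within psoas and 0.955 within diaphragm). IGFBP5, a secreted binding protein of insulin-like growth factors, followed at 0.896, then ATIC, an enzyme of purine synthesis, at 0.884, and CELF2, an RNA-binding splicing regulator, at 0.858. RIPOR2, TDRD3, CXCL12 and BTBD3 had 0.845, 0.840, 0.828 and 0.823. The most opposite were RNF44 at -0.877, TXNRD1, thioredoxin reductase, at -0.875, SDHAF2, an assembly factor of succinate dehydrogenase, at -0.872 and C9H1orf74 at -0.868. The points are pairs of arrays from 8 animals and share their arrays' scale, and MSTN's own spread rests in part on animal 4. Without that animal, left out after its values were seen, the correlations were 0.833 for SGCD, 0.725 for IGFBP5, 0.718 for ATIC, 0.572 for CXCL12 and -0.654 for RNF44. Against the other MSTN probe set, SGCD, CELF2 and ATIC ranked 1, 2 and 3, and IGFBP5, at a correlation of 0.708, ranked 29.

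SGCD was also higher in psoas, with a difference of 0.98 ± 0.17 log2 (SE, limma adjusted p = 8.9e-04), and so were ATIC by 0.44 log2 (adjusted p = 0.0024) and CELF2 by 0.39 log2 (adjusted p = 0.0202). IGFBP5 had the opposite order, -1.37 ± 0.27 log2, psoas minus diaphragm (SE, adjusted p = 0.0020). In psoas SGCD had 10.13, 10.24, 10.26 and 10.57 log2 in restricted animals 2, 3, 5 and 8, against 9.78, 9.03, 9.97 and 9.30 log2 in high-level animals 1, 4, 6 and 7. These values are a description: SGCD was chosen for its likeness to MSTN on the same arrays, and the feeding levels did not overlap in psoas, as for 2.42% of all tested probe sets in this direction. In diaphragm it had 9.12, 8.48, 9.38 and 9.62 log2 in restricted animals 2, 3, 5 and 8, against 8.82, 8.09, 9.30 and 8.63 log2 in high-level animals 1, 4, 6 and 7, where the ranges overlapped. None of the 12 genes was called by feeding, where 0% of all tested probe sets were called.

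**Figure D5:**
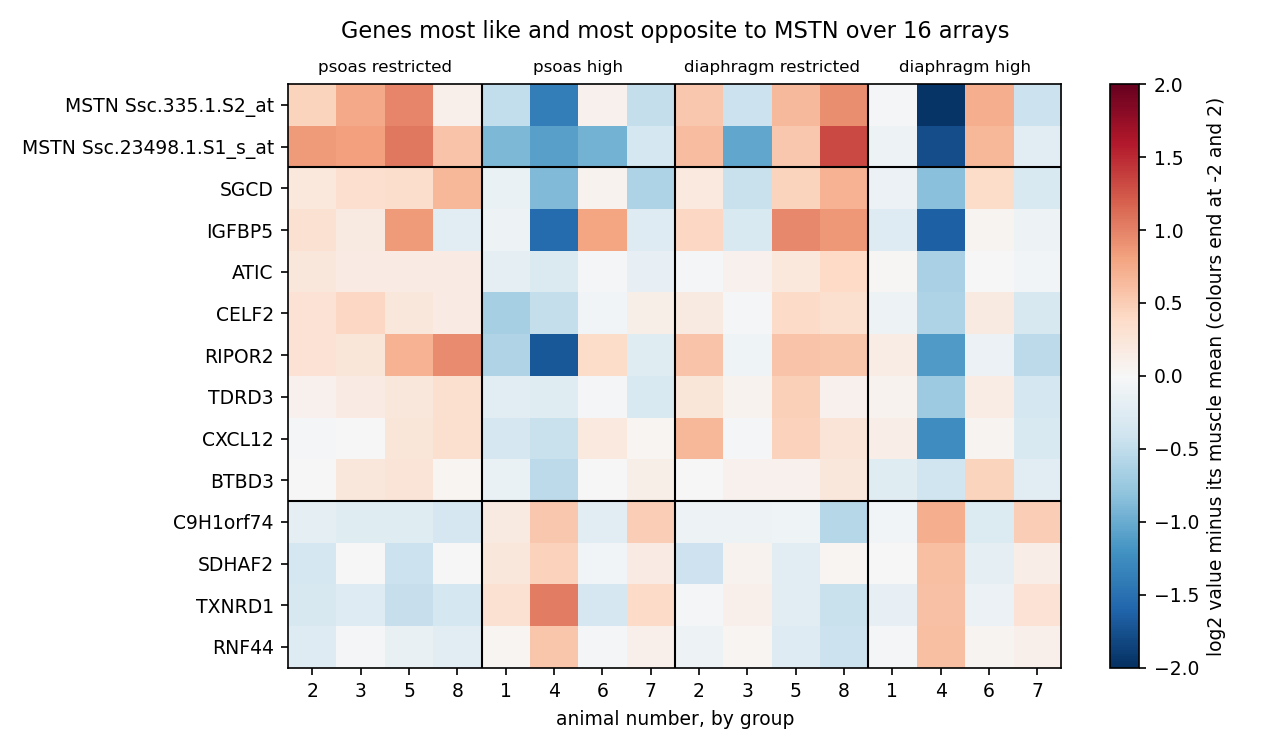
Log2 expression of the 8 genes most like MSTN and the 4 most opposite on each array, beside MSTN, after each muscle's mean was subtracted; columns are arrays grouped by muscle and feeding level. SGCD and IGFBP5 have correlations of 0.898 and 0.896 with S2_at, and RNF44 has -0.877; with S1_s_at that of IGFBP5 is 0.708.

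In the Sscrofa11.1 annotation MSTN lies between ORMDL1 and C15H2orf88, with PMS1 and HIBCH next beyond them. C15H2orf88 averaged 4.96 log2 in restricted and 5.13 log2 in high-level psoas, PMS1 6.88 log2 in restricted and 6.58 log2 in high-level psoas, and HIBCH, an enzyme of valine breakdown, 7.002 log2 in restricted and 6.54 log2 in high-level psoas. The 2 tested ORMDL1 probe sets averaged 4.78 and 5.36 log2 in restricted psoas, against 4.50 and 5.67 log2 in high-level psoas. These are group means given without a test.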

How the data were processed

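The values were those the authors deposited, log2 expression values of 24123 probe sets on 16 arrays, made with GCRMA per the submitters' processing notes (no version stated). GCRMA subtracts a background estimated from probe sequence and normalizes arrays together, which compresses low values, so differences reaching below 4 are the least certain. Total RNA was extracted with a kit and labelled with biotin, per the labels' protocols. Genes were named from the platform annotation: 10099 probe sets had 1 symbol, 198 several and 13826 none.

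The 124 control probe sets were left out, and probe sets with a log2 value of at least 4 in at least 4 of 16 arrays were tested (11467). Differences were fitted with limma 3.58.1 in R 4.3.3 (lmFit and eBayes) over all of them, with Benjamini-Hochberg adjustment and a threshold of 0.05; the muscles were fitted on 16 arrays with sex and feeding as covariates, feeding and sex on the 8 arrays of a muscle, on animal means or on within-animal differences. The fitting was tested on simulated data in which 200 probe sets were changed and the arrays of an animal were drawn as unrelated. Of changes of 1 log2 it recovered 89.5% between the muscles and 54.5% by feeding in psoas. For the muscle difference by feeding it recovered 0% of changes of 1 log2 and 82% of changes of 2 log2. Exact permutation tests over animals were 2-sided and made only for MSTN. The number of arrays limits the precision, and each animal is 1 replicate.

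The animal number in the labels pairs the muscles. After sex and feeding level were fitted within each muscle, the remaining deviations over tested probe sets correlated by 0.269 to 0.409 between the muscles of each of the 8 animals. The same correlation between muscles of different animals was not computed, so these values alone do not show the pairing. In the fit of the muscles the arrays of an animal were taken as separate, and the fit with the animal as a block is given as an alternative. Named genes were MSTN, the listed pathway genes (1 probe set per gene, the highest in mean; called ones, and ligands, receptors and binding proteins by value) and the 8 most and 4 least correlated genes; SMADs, AKT1, FBXO32, MYOD1, BMP1 and the neighbouring genes were added after their values were seen. The gene, the lists and the grouping of animals 1, 2, 3 and 5 were chosen with earlier results of these data known. Alternatives were no filter, no covariates, median centring, a mean-variance trend, the animal block, the grouping of animals, each animal left out, and, added after seeing the data, values below 4 set to 4. ACVR2B, the main myostatin receptor, was not analysed here.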

Additional observations from a re-analysis of the deposited data

How the results depend on the processing

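No direction of an MSTN difference reversed under the alternatives run. With the animal as a replicate block (paired muscles), psoas minus diaphragm stayed called at 0.89 log2 for S2_at (limma adjusted p = 0.0076) and 0.97 log2 for S1_s_at (adjusted p = 0.0375), and the differences within a feeding level stayed uncalled. The block fit called 8 of 26 pathway genes and 33.5% of all tested probe sets, against 3 of 26 and 27.0% in the main fit. The muscle call was lost with no filter (0.89 and 0.97 log2, adjusted p = 0.0901 and 0.0876), with no covariate (0.89 and 0.97 log2, adjusted p = 0.111 and 0.119) and in animals 4, 6, 7 and 8 alone (0.66 and 0.51 log2, adjusted p = 0.274 and 0.389, with 1 pathway gene called), S2_at first in each. The last has fewer samples, with animals 4, 6 and 7 on the high level and animal 8 under restriction. Without covariates the SE was 0.39 log2 for S2_at and 0.44 log2 for S1_s_at, against 0.29 and 0.31 log2 in the main fit. Without a filter the SE was 0.31 and 0.33 log2, and more probe sets were adjusted for. The causes were not tested. The share called over all tested probe sets was not computed for animals 4, 6, 7 and 8 alone or for fits without 1 animal. Leaving out each animal gave 0.72 to 1.01 log2 for S2_at and 0.70 to 1.20 log2 for S1_s_at, and 2 to 4 pathway genes. In restricted animals it gave 0.69 to 1.36 log2 for S2_at and 0.97 to 1.84 log2 for S1_s_at, called in these fits only without animal 8. There S1_s_at was also called with all 4 animals and values below 4 set to 4 (1.32 log2, limma adjusted p = 0.0436). The feeding and sex differences stayed uncalled under each alternative. Arrays near a log2 value of 4 limit the diaphragm values, 3 of which lay below it.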
